A study of Mus musculus with 4 samples.

Results

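Genes of the mesothelium, the cell layer that covers the lung and lines the chest cavity, were followed in RNA from lung cells sorted by a smooth muscle reporter. The members were 9 genes known from mesothelium, *Msln*, *Upk3b*, *Upk1b*, *Wt1*, *Lrrn4*, *Krt19*, *Gpm6a*, *Rspo4* and *Nkain4*. They were found by symbol among the 21462 genes of the deposited table, and all 9 were listed. The comparison was of 2 libraries from mice with *Tet3* inactivated against 2 control libraries, and it asked whether loss of TET3, an enzyme that oxidizes methylated cytosine in DNA, moved these genes. The mutant mice carried floxed *Tet3* alleles and α-SMA-ERT2Cre, a Cre recombinase driven by the smooth muscle actin promoter and switched on with tamoxifen given to adult animals. A tdTomato reporter at ROSA26 marked cells in which Cre had acted. Across the study, control mice lacked the floxed allele and carried Cre, the reporter or both. Sorting for tdTomato, as done here, needs Cre and reporter together. Both groups could therefore differ from wild-type mice in these transgenes. The stock was C57BL/6, and the interval between tamoxifen and this RNA is not given in the sources used here. The lungs were digested, cells bearing CD45 or Ter-119 were removed with beads, and living tdTomato-positive cells were sorted.

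Mesothelial cells are flat cells that hold epithelial traits, such as keratins and apical microvilli, together with traits of mesenchyme. They secrete a lubricating fluid, and during development they can give rise to fibroblasts and smooth muscle cells. WT1 is the transcription factor best known for marking them, and mesothelin, uroplakins and the mucin MUC16 are among their surface proteins. In bulk RNA, fewer cells of a type and less RNA per cell cannot be told apart, and this holds for every value below.

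The 4 libraries held an estimated 6.324 M to 7.557 M reads assigned to genes. Values are normalized counts, scaled between libraries by the authors and rounded. *Tet3*, counted over all its exons rather than the floxed part alone, was at 1847 and 1926 in the controls and at 1534 and 1444 in the mutants (log2 fold change -0.34 ± 0.1 SE, limma adjusted p = 0.681). Control 2 stood apart from the other 3 libraries, with 2 normalized counts of *Xist* against 5214 to 6781, and 774 of the Y-linked *Ddx3y* against 0. By these genes control 2 was male and the other libraries female, though the labels give no sex. In the gap between the controls, sex cannot be told apart from other differences between the animals. Both mutants were female by these genes, so sex was also unbalanced between the groups. A fold change given below without control 1 sets the male control against female mutants. Without control 2, all libraries compared were female by these genes. Control 2 was the highest library for 33.2% of the genes tested, against 20.7% to 22.4% in the other libraries. Smooth muscle markers were present in every library, with *Acta2* at 686 to 1032 and *Myh11* at 1330 to 2473, and markers of fibroblasts, endothelium, alveolar epithelium and macrophages were present as well.

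The promoters of *Upk3b*, *Lrrn4* and *Rspo4* are shown because these were the members whose values in control 1 lay more than 2-fold above those of every other library. Each is the 300 bases from 250 before to 50 after the gene's start, taken from RefSeq on GRCm38.p6, and 4 members had an entry there. *Upk3b* is on the plus strand at chr5:136038246-136038545, *Lrrn4* on the minus strand at chr2:132880813-132881112 and *Rspo4* on the plus strand at chr2:151842677-151842976. Capitals mark the TEAD core (GGAATG, or CATTCC on the other strand) and no other motif.
Upk3b: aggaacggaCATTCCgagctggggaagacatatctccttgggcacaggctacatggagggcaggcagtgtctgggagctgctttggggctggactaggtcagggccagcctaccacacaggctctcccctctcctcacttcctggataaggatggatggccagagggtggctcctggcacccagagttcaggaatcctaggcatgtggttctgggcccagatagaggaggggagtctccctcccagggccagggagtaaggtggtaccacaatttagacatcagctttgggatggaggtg
Lrrn4: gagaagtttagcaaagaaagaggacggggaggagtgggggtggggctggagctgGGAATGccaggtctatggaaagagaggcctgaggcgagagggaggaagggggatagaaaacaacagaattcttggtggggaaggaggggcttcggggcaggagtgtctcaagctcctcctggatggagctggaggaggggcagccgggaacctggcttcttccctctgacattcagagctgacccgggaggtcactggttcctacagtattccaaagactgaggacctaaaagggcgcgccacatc
Rspo4: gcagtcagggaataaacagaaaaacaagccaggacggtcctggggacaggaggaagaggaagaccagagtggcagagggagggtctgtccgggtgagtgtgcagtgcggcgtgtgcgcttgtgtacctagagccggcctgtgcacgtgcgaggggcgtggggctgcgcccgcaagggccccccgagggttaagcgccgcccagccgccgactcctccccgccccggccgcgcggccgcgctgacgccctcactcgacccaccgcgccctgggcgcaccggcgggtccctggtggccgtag
The windows of *Upk3b* and *Lrrn4* each held 1 TEAD core, which 14.7% of the 32851 promoters of this length hold, and the window of *Rspo4* held 0. The core bound by WT1 and EGR factors (GTGGGNG on either strand), present in 31.6% of promoters, occurred in *Lrrn4* alone among these 3. The *Rspo4* window was the richest in GC, at 71.0% with 31 CpG sites, against 58.7% with 2 in *Upk3b* and 58.0% with 7 in *Lrrn4*, and the median over all promoters was 52.7%. It also held 2 GC boxes (GGGCGG on either strand), a motif present in 35.7% of promoters. These matches describe letters in a window, and no binding was measured.

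None of the 9 members differed between Tet3 mutant and control libraries after correction over the 16659 genes tested (limma, 0 of 9 at adjusted p under 0.05). The same held for all genes, of which 0% passed. Without correction, 1112 genes, or 6.68%, had p under 0.05, and of the members this was *Wt1*. The median log2 fold change of the members was -0.14, beside -0.01 over all genes tested, with 4 members above 0 and 5 below. The control libraries also differed from each other. In 7 of 9 members control 1 held the highest value, which was the case for 21.5% of all genes, and in none was control 2 the highest.

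**Figure D1:**
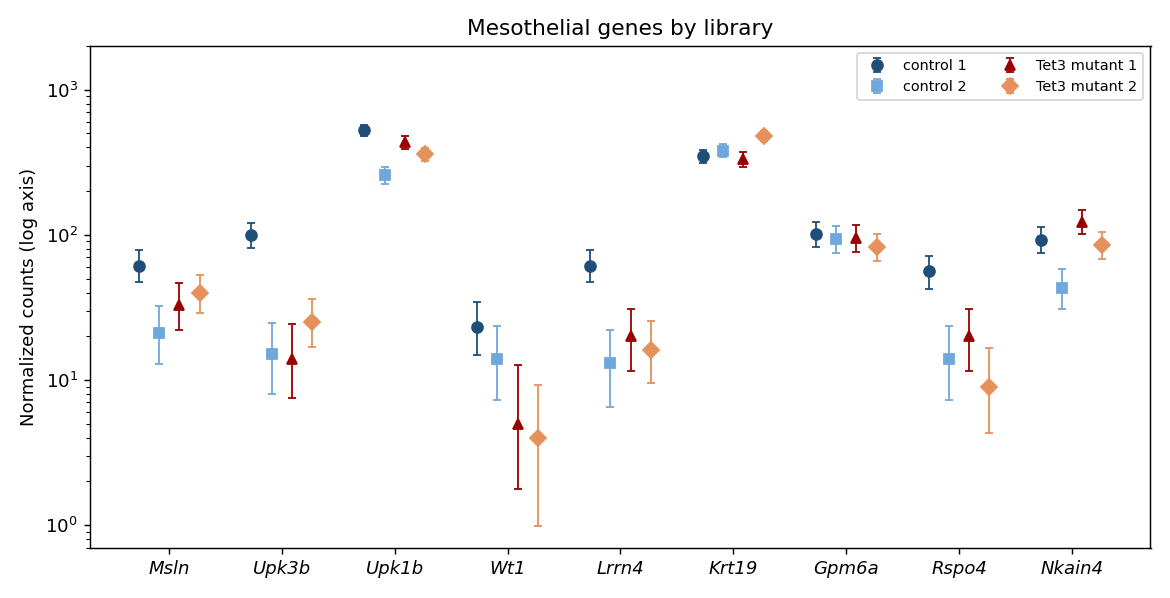
Normalized counts (log axis) of the 9 mesothelial genes in control 1, control 2, Tet3 mutant 1 and Tet3 mutant 2, with 95% Poisson intervals that cover counting error only. Control 1 stands above the other libraries for *Upk3b*, *Lrrn4* and *Rspo4*, and both mutants lie below both controls for *Wt1*.

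Per kilobase of exon, the members spanned a range of levels in the sorted cells. *Krt19* and *Upk1b* were the most abundant, with means over the 4 libraries of 207 and 188 normalized counts per kilobase, at percentiles 91.8 and 89.7 of the genes tested. Their ranges overlapped, so neither stood above the other beyond the spread of the libraries. *Nkain4* followed at 69.2 per kilobase and *Gpm6a* at 28.9, and the values of these 2 genes did not overlap. *Msln* (12.6), *Upk3b* (10.8), *Rspo4* (10.4) and *Lrrn4* (7.4) overlapped each other, with *Upk3b* at percentile 13.5 and *Lrrn4* at percentile 8.72. *Wt1* was the lowest, at 1.86 per kilobase and percentile 0.541.

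**Figure D2:**
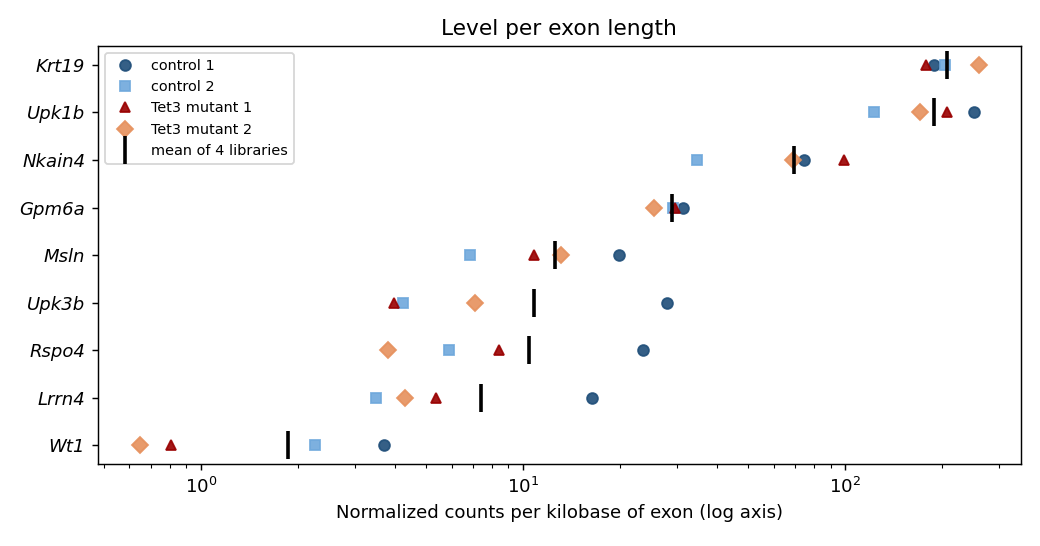
Level per exon length of each member (normalized counts per kilobase of exon, log axis), with 1 symbol per library and a black bar at the mean of the 4. *Krt19* and *Upk1b* are at the top with means of 207 and 188, and *Wt1* is at the bottom with 1.86.

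*Wt1* (ENSMUSG00000016458, chr2:105126529-105173616, plus strand) encodes a zinc-finger transcription factor of mesothelium, epicardium and kidney podocytes. It was at 23 and 14 normalized counts in controls 1 and 2 and at 5 and 4 in mutants 1 and 2. Both mutants lay below both controls, which made it the one member whose groups did not overlap, as 19.5% of all genes tested also did in this direction. The log2 fold change was -1.79 ± 0.52 (SE), with an unadjusted limma p of 0.0175 and an adjusted p of 0.681. Of all genes tested, 2.85% were lower in the mutants at unadjusted limma p under 0.05. The *Wt1* values are few reads. The 95% counting interval of control 2 was 7.28 to 23.4 and that of mutant 1 was 1.77 to 12.7, so these libraries were not separated at this depth. *Wt1* reached the minimum mean of 10 through its controls (mean 18.5 ± 6.36 SD against 4.5 ± 0.707, n = 2 each), and a gene with 4.5 in the mutants could enter the test only by being higher in the controls.

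Genes tied to *Wt1* by name, partnership or regulation had log2 fold changes of -0.26 to 0.26. Of the 8 listed, 6 were in the table and 5 were tested, none of them at unadjusted p under 0.05 in limma, with a median log2 fold change of -0.05. *Wtap* encodes a partner of WT1 that is itself part of the RNA methylation machinery. It was at 553 and 546 in controls and at 523 and 517 in mutants. *Podxl*, a sialomucin gene known as a WT1 target in podocytes, was at 1893 and 1564 against 1989 and 1918. *Amhr2* was at 2 to 5 in every library and below the minimum.

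*Msln* (ENSMUSG00000063011, chr17:25748613-25754378, minus strand) encodes mesothelin, a surface glycoprotein that binds MUC16. Its values were 61 and 21 in the controls and 33 and 40 in the mutants. The mutants lay between the controls, and the log2 fold change was 0.02 ± 0.57 (SE, limma adjusted p = 0.996). Its direction turned on which control was kept, from 0.76 without control 1 to -0.73 without control 2.

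The uroplakins are membrane proteins that form plaques on the surface of the bladder urothelium, and *Upk3b* and *Upk1b* are also made by mesothelial cells. *Upk3b* (ENSMUSG00000042985, chr5:136038496-136046487, plus strand) was at 99 in control 1, 15 in control 2, 14 in mutant 1 and 25 in mutant 2. Control 1 was 3.96 times the next library, and its 95% counting interval of 80.8 to 120 did not reach those of the others, the highest of which ended at 36.4. The fold change of -1.02 ± 0.93 (log2, SE, limma adjusted p = 0.769) thus rested on control 1, and without that library it was 0.3. Control 2 and mutant 1 differed by 1 normalized count.

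*Upk1b* (ENSMUSG00000049436, chr16:38773184-38800328, minus strand), which encodes a tetraspanin, was at 524 and 257 in the controls and at 433 and 358 in the mutants. Here control 2 was the low library, both mutants lay between the controls, and the group means were 390.5 ± 189 and 395.5 ± 53 (SD, n = 2 each). The log2 fold change was 0.10 ± 0.35 (SE, limma adjusted p = 0.948). It was 0.61 without control 1 and -0.41 without control 2. None of the 4 other uroplakin genes listed was found in the table.

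*Lrrn4* (ENSMUSG00000043110, chr2:132868305-132880891, minus strand) encodes a membrane protein with leucine-rich repeats. It had the same shape as *Upk3b*, with 61 in control 1, 13 in control 2, 20 in mutant 1 and 16 in mutant 2. Control 1 was 3.05 times the next library, with a counting interval of 47.3 to 78.5 against 6.52 to 31.0 over the other 3. The log2 fold change was -0.64 ± 0.77 (SE, limma adjusted p = 0.828), and it was 0.43 without control 1 and -1.71 without control 2. The related *Lrrn3* (371 and 173 in controls, 254 and 224 in mutants) and *Lrrn2* (130 and 49, 80 and 122) were also highest in control 1 and lowest in control 2, by smaller ratios.

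*Gpm6a* and *Nkain4* are known mainly from the nervous system, the first as a proteolipid of neuronal membranes and the second for binding the Na,K-ATPase. *Gpm6a* (ENSMUSG00000031517, chr8:54954843-55060871, plus strand) was the most even member, at 101 and 94 in controls and 95 and 82 in mutants. Its log2 fold change of -0.14 ± 0.23 (SE, limma adjusted p = 0.877) was within the spread of the libraries. Its relative *Gpm6b* was lowest in control 2, at 750 against 1172 to 1244. *Nkain4* (ENSMUSG00000027574, chr2:180934772-180954699, minus strand) was at 92 and 43 in controls and at 123 and 85 in mutants. The groups overlapped, since mutant 2 was below control 1. *Nkain4* had the largest positive log2 fold change among the members, 0.69 ± 0.44 (SE, limma adjusted p = 0.708). This was 1.23 without control 1 and 0.15 without control 2. An antisense gene shares 55 exon bases with *Nkain4*, and the use of strand in counting is not given in the sources used here.

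*Krt19* (ENSMUSG00000020911, chr11:100140810-100148665, minus strand) encodes a keratin of simple epithelia that mesothelium shares with the lung's airway and alveolar lining. It was at 348 and 379 in controls and at 331 and 480 in mutants, with a log2 fold change of 0.13 ± 0.21 (SE, limma adjusted p = 0.874). The controls lay within the range of the mutants. The other simple keratins differed from it in control 2. *Krt7* was at 591 there against 232 to 271 elsewhere, *Krt8* at 539 against 238 to 315 and *Krt18* at 691 against 240 to 362. Alveolar epithelial markers were, in sum, also highest in control 2. The 6 alveolar type 2 markers summed to 13327 and 19547 in the controls and 9604 and 12010 in the mutants, and the 6 alveolar type 1 markers to 2519 and 4353 against 1802 and 2739, with no marker of either list at 0 in any library. Their part in the *Krt19* values was not tested.

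*Rspo4* (ENSMUSG00000032852, chr2:151842927-151874668, plus strand) encodes an R-spondin, a secreted protein that strengthens WNT signals by binding LGR receptors and removing the ubiquitin ligases ZNRF3 and RNF43 from the cell surface. It was at 56 in control 1, 14 in control 2, 20 in mutant 1 and 9 in mutant 2. Control 1 was 2.8 times the next library, and its counting interval of 42.3 to 72.0 lay above that of mutant 1, which was 11.6 to 31.0. The log2 fold change of -1.01 ± 0.79 (SE, limma adjusted p = 0.735) was -0.05 without control 1. *Rspo4* was also the one member whose mutant libraries were more than 2-fold apart, which was so for 4.89% of all genes.

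The other genes of this pathway were taken from a list of 8, all of them tested, and 2 had an unadjusted limma p under 0.05, both lower in the mutants, beside 6.68% of all genes in either direction and 2.85% in this one. The median log2 fold change of the list was -0.05. These were the ligase genes. *Znrf3* was at 1095 and 880 in controls and at 661 and 670 in mutants (log2 fold change -0.56 ± 0.14 SE, limma adjusted p = 0.681), and leaving out any library gave -0.72 to -0.40. *Rnf43* was at 151 in control 1, 467 in control 2, 89 in mutant 1 and 96 in mutant 2, with a log2 fold change of -1.51 ± 0.54 (SE, limma adjusted p = 0.681) that was -0.70 without control 2. Neither passed correction. The receptor genes *Lgr4* (242 and 169, then 183 and 198) and *Lgr5* (49 and 122, then 104 and 110) overlapped between groups. The mutant values of *Lgr6* (242 and 279) lay above its control values (171 and 234), as in 3259 of all 16659 genes tested. Its log2 fold change was 0.38 ± 0.21 (SE, limma adjusted p = 0.689). Among the ligand genes, *Rspo3* ranged from 32 to 43 over the libraries, *Rspo2* was at 16 and 11 in the controls but at 9 in mutant 1 and 17 in mutant 2, and *Rspo1*, also of mesothelium, was at 68 in control 1 and 24 in control 2 against 62 and 73.

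**Figure D3:**
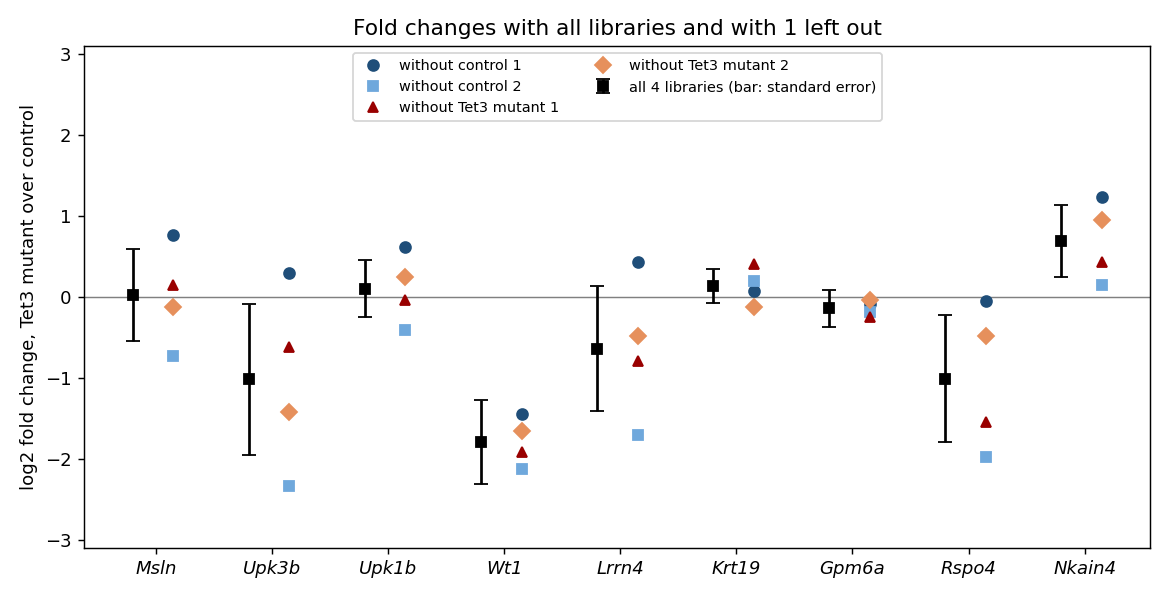
Log2 fold change, Tet3 mutant over control, of each member with all 4 libraries (black squares, bars are the limma standard error, n = 2 per group) and with 1 library left out (coloured symbols). *Wt1* stays between -2.13 and -1.45, while *Upk3b* runs from -2.34 without control 2 to 0.3 without control 1.

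The gap between the controls was then set against that of all genes. Control 1 was more than 2-fold above control 2 in 6 of 9 members, *Upk3b*, *Lrrn4*, *Rspo4*, *Msln*, *Nkain4* and *Upk1b*, beside 5.05% of all genes tested. Low genes vary more, and among genes with a mean under 100 the share was 10.8%, with 5 of 7 members. Control 1 was more than 2-fold above every other library in 3 of 9 members, beside 0.336% of all genes and 0.884% of those with a mean under 100. These 2-fold rules were chosen after the values had been seen, so the counts describe these libraries and carry no p. In log2 units the control gap ran from 2.64 in *Upk3b* to -0.12 in *Krt19*, where the 5th to 95th percentiles of all genes were -1.13 and 1.01. The mutant libraries were closer together, and all members but *Rspo4*, *Upk3b* and *Nkain4* had ratios of mutant 1 to mutant 2 between 0.69 and 1.25.

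**Figure D4:**
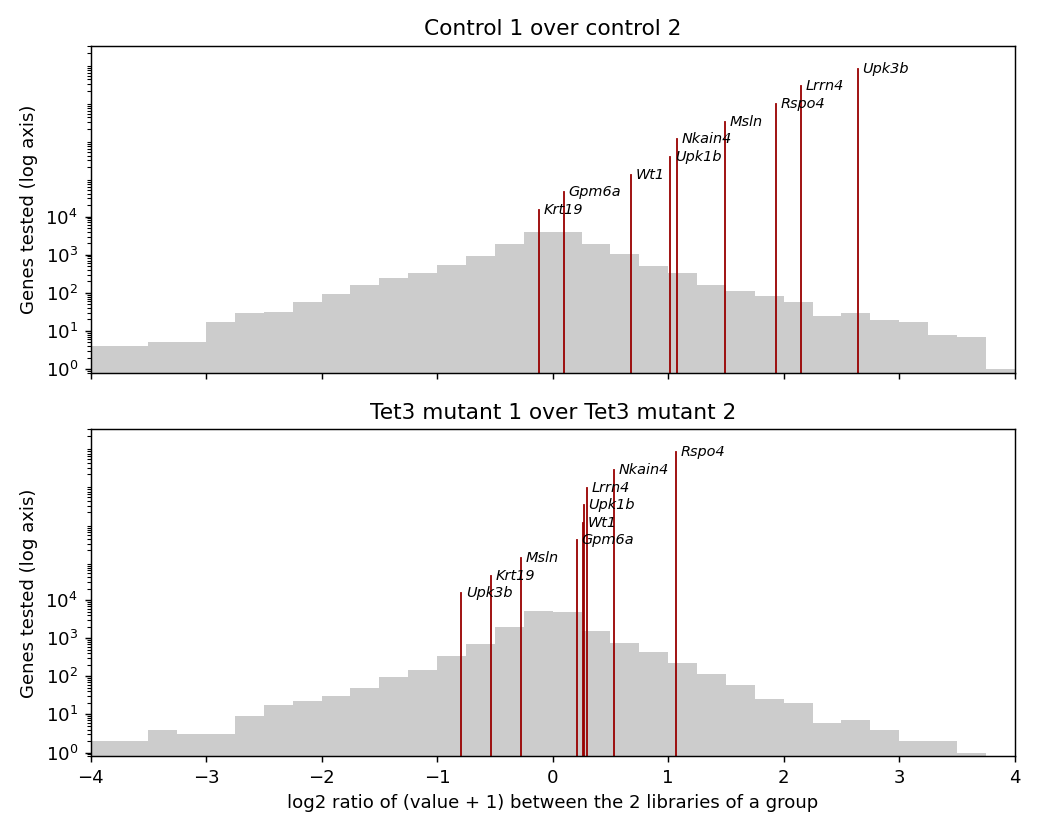
Histograms of the log2 ratio between the 2 libraries of a group over the genes tested (grey, count on a log axis), with the 9 members as red lines whose height carries no meaning. In the controls the members reach 2.64 (*Upk3b*), and in the mutants they lie between those of *Upk3b* and *Rspo4*.

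A further 11 genes known from mesothelium were listed, of which 10 were in the table and 9 were tested. Of these 4 were above 0 and 5 below, with a median log2 fold change of -0.20 and none at unadjusted limma p under 0.05. Without overlap, 1 was higher in the mutants (*Tbx18*) and 2 were lower (*Muc16* and *Prg4*). Over all 16659 genes tested, 3259 were higher and 3241 lower in this way. *Muc16*, the mucin that mesothelin binds, had the shape of *Upk3b*, with 237 in control 1, 58 in control 2, 49 in mutant 1 and 56 in mutant 2. Its log2 fold change of -1.15 ± 0.67 (SE, limma adjusted p = 0.694) was -0.14 without control 1. *Bnc1*, which encodes the transcription factor basonuclin, was at 22, 6, 4 and 3 in the same order. Its mutant values lay below both controls, as for 19.5% of all genes tested. The values of 6, 4 and 3 are few reads, and control 1 was the library that stood apart. The mean of *Bnc1*, 8.75, was below the minimum and it was not tested.

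Other mesothelial genes were low in control 2 instead. *Aldh1a2*, which encodes an enzyme of retinoic acid synthesis, was at 427 in control 1, 129 in control 2, 398 in mutant 1 and 380 in mutant 2. *Rspo1*, the R-spondin gene given above, shared this. Control 2 was the one low library in both, and without it the log2 fold changes went from 0.73 to -0.13 in *Aldh1a2* and from 0.72 to -0.02 in *Rspo1*. *Prg4*, which encodes lubricin, went the other way, at 78 in control 2 against 25 in control 1, 17 in mutant 1 and 15 in mutant 2 (log2 fold change -1.42 ± 0.61 SE, limma adjusted p = 0.681). *Lrrn4cl* was also highest in control 2, at 185 against 116 in control 1, 82 in mutant 1 and 136 in mutant 2. *Cldn15* and *Pkhd1l1* were highest in control 1 and lowest in control 2, and *Tbx18* and *Fgf9* were highest in mutant 1. Summed over the 10 genes, the libraries held 1243, 669, 847 and 895 normalized counts, and over the 9 members 1365, 850, 1074 and 1099. Both sums were highest in control 1 and lowest in control 2, with the mutants between them.

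**Figure D5:**
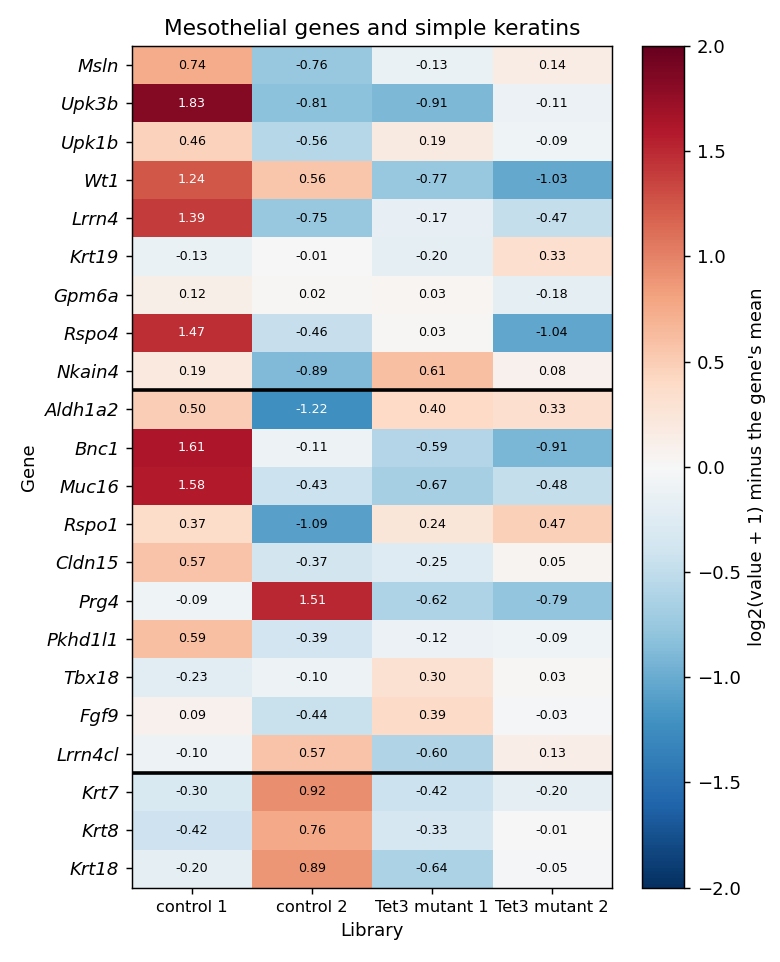
Log2(value + 1) minus the gene's own mean over the 4 libraries, for the 9 members (top block), the other mesothelial genes (middle block) and the simple keratins (bottom block). *Upk3b*, *Lrrn4*, *Rspo4*, *Muc16*, *Bnc1* and *Wt1* are highest in control 1, *Aldh1a2* and *Rspo1* are lowest in control 2, and *Krt7*, *Krt8* and *Krt18* are highest in control 2.

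Markers of other cells were set beside the members. Smooth muscle markers summed to 4567 in control 1, 5848 in control 2 and 6894 and 6519 in the mutants. This sum was lowest in control 1, where the sums of the mesothelial lists were highest. A few genes weigh most in such sums, as *Krt19* (348) and *Upk1b* (524) did among the members in control 1. By gene, 1 of the 8 smooth muscle markers was highest in control 1. This was *Smtn*, at 1113 there, 747 in control 2 and 1100 and 963 in the mutants. All 8 smooth muscle markers had log2 fold changes above 0, beside 8156 of all 16659 genes tested. Their median was 0.46, and it was 0.28 without control 1. Fibroblast markers summed to 20152 and 17257 in the control libraries against 20804 and 18799 in the mutant ones, so the groups overlapped. Endothelial markers summed to 14085 and 13580 against 15093 and 14621, and these sums did not overlap. By gene, 2 of the 8 endothelial markers were higher without overlap, beside 3259 of all 16659 genes tested. The median log2 fold change of the endothelial list was 0.09. Club cell markers, like the members, were highest in control 1 (1734) and lowest in control 2 (971), with 1348 and 1664 in the mutants. Ciliated cell markers summed to 3547 and 2614 in the mutants against 1906 and 2062 in the controls. *Dnah5* alone was at 1691 and 1033 in the mutants and at 793 and 746 in the controls. Macrophage markers summed to 4783 and 4197 in the control libraries and to 5278 and 6073 in the mutant libraries. By gene, 6 of 6 ciliated and 4 of 6 macrophage markers were higher without overlap, beside the same 3259 of 16659 genes. None of them passed correction. No mesothelial member was at 0 in any library, and the lowest value, 4 for *Wt1* in mutant 2, was above the 2.7 normalized counts that 3 reads amount to there. The part of cell makeup in the differences between libraries was not tested.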

How the data were processed

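RNA-seq of 4 sorted lung cell libraries was used, 2 control and 2 Tet3 mutant, grouped and numbered by their labels. The authors depleted ribosomal RNA, made stranded total RNA libraries, sequenced them single-end, aligned reads to mouse (mm10, GRCm38) and counted them over exons with featureCounts, leaving out reads of several genes or places. The submitters' processing notes name Trimmomatic 0.36, STAR 2.6.0c and Subread 1.6.0. The deposited values are a score: counts per gene that the authors scaled with DESeq2 and rounded to whole numbers. Scaling factors, estimated from how often each low value occurred, were 0.9605 (control 1), 1.052 (control 2), 1.09 (mutant 1) and 0.9005 (mutant 2). Below 1, different read numbers share a value, so reads were not recovered and no count test was run. Intervals are exact 95% Poisson limits on the estimated reads, cover counting error only, and assume reads to be independent molecules, which they are not without molecular identifiers.

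Genes with a mean of at least 10 were tested on log2(value + 1), a scale that understates changes of low genes, with limma 3.58.1 in R 4.3.3 (lmFit, eBayes with trend), two-sided, with Benjamini-Hochberg adjustment over all genes tested. The study's legends describe the 2 libraries of a group as independent animals, which the labels do not state. An exact permutation test of 2 against 2 cannot go below 0.333. The script was tested on simulated data with small spread and with changes only in genes of mean at least 50. That test does not cover the spread between the controls or the low levels of several members. Exon lengths came from GENCODE, where 99.8% of identifiers matched. Members and lists were chosen with earlier results of these data known. Genes named by rule were the members, *Tet3*, *Xist* and *Ddx3y*, other mesothelial genes, relatives and pathway genes of the members, and the 12 genes of mean at least 50 closest in profile to the members. *Calb2* was not analysed here. Genes outside the rule, and the 2-fold rules, were chosen after their values were seen. Alternatives were pseudocounts of 0.5 and 8, minimum means of 1 and 50, equal library totals, equal upper quartiles, no trend, the replicate number as a block, and each library left out.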

Additional observations from a re-analysis of the deposited data

How the results depend on the processing

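No member passed the adjusted threshold of 0.05 in limma under any alternative, and the smallest adjusted p of a member ran from 0.227 to 0.998 over the settings, beside 0.681 as reported. Outside the fits with a library left out, 66 of 67 member fold changes kept their direction. The exception was *Msln*, at -0.012 with a pseudocount of 8. With a minimum mean of 50, which only 4 members meet, the number of members at unadjusted p under 0.05 was 0 and the median of the members was 0.12. That minimum gave the R-spondin pathway a median of 0.14, equal library totals gave it 0.001, and a minimum mean of 1 gave the *Wt1*-linked genes 0.065. Equal library totals moved the median of all genes from -0.007 to 0.041. Over all genes 0 passed the adjusted threshold as reported, with 1112 at unadjusted p under 0.05, and 1 passed without the trend.

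With 1 library left out, limma assumes that the lone sample varies like the others. The median log2 fold change of the members then ran from -0.73 to 0.3, the upper end without control 1. The number of members at unadjusted p under 0.05 depended on the library left out and is not read here. The sign was kept in *Wt1* (-2.13 to -1.45), *Rspo4* (-1.98 to -0.05), *Nkain4* (0.15 to 1.23) and *Gpm6a* (-0.25 to -0.036). Log2 fold changes that turned sign ran from -0.73 to 0.76 in *Msln*, -2.34 to 0.3 in *Upk3b*, -0.41 to 0.61 in *Upk1b*, -1.71 to 0.43 in *Lrrn4* and -0.13 to 0.4 in *Krt19*. Medians of lists that did so ran from -0.22 to 0.27 for the other mesothelial genes, -0.28 to 0.2 for the R-spondin pathway, -0.002 to 0.27 for fibroblasts, -0.003 to 0.2 for endothelium and -0.23 to 0.97 for club cells. The cause was not tested.

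Same-numbered libraries deviated together only weakly (r = 0.13 over 16659 genes). With 2 libraries per group the 2 pairs mirror each other, so this is 1 comparison. The labels do not say what a number marks, so the numbers were not taken to pair the samples. With the replicate block the median of the members was -0.14, 1 member and 1637 genes had unadjusted p under 0.05, the smallest adjusted p of a member was 0.447 and 0 genes passed. Low genes limit the depth: 3 reads amount to 2.7 to 3.27 normalized counts, against 4 and 5 for *Wt1* in the mutants.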

Other observations

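The genes with the profile closest to the median of the members were searched for among 12784 genes with a mean of at least 50, as a description over 4 libraries. Centred on its own mean, that median was 0.74 in control 1, -0.56 in control 2 and -0.13 and -0.11 in the mutants (log2). The closest gene was *Hivep3*, which encodes a zinc-finger protein, at 2246 and 996 normalized counts in the controls and 1380 and 1339 in the mutants (distance 0.127). Next came *Adrb3*, the β3-adrenergic receptor gene, at 299 and 123 against 180 and 183 (distance 0.134), and then *Adam1a*, *Arhgef37*, *Nav3*, *Fras1*, *2610307P16Rik*, *Best3*, *Slco5a1*, *Tnfsf15*, *Gm45258* and *Gna14*. None of the 12 was in the lists of cell markers or relatives used here. Among the members, *Msln* (0.32) and *Upk1b* (0.42) lay closest to that median and *Wt1* (1.66) farthest.

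Control 1 also stood apart in genes outside the lists used here, chosen after their values were seen. *Alas2*, which encodes the heme synthesis enzyme of red cell precursors, was at 91 in control 1 and at no more than 4 in the other libraries. *Itln1*, which encodes intelectin-1, a lectin known from goblet cells and from mesothelium, was at 95 in control 1 and at 0 or 1 elsewhere. In all, 56 genes were more than 2-fold above every other library in control 1, compared with 635 in control 2, 50 in mutant 1 and 38 in mutant 2.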
